A study of Mus musculus with 2 samples.

Results

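Leukocytes leave the blood by rolling on, arresting on and crossing the vessel wall, and 8 genes that act at these steps were followed here in allergic mouse skin. They are Sele (E-selectin) and Selp (P-selectin), which capture rolling leukocytes, Icam1 and Vcam1, the immunoglobulin-type ligands for arrest, Selplg (PSGL-1), the leukocyte ligand of the selectins, and Itgal, Itgb2 and Itga4, subunits of the integrins that bind those ligands. The members were chosen by name from the gene rows of the expression matrix, and all 8 were found among 35208 rows. Each was followed as reads, as CPM (reads of the gene per 1000000 reads summed over the cells of a type in a pool) and as the share of cells with a read.

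The cells came from ear skin lesions of IgE-mediated chronic allergic inflammation (IgE-CAI), raised in male BALB/c mice by intravenous IgE against the hapten TNP (300 µg) and, on the next day, intradermal TNP-conjugated ovalbumin (10 µg). Wild-type (WT) and Ccr2-/- mice, which lack the chemokine receptor CCR2 that draws classical monocytes from the blood, were sampled on day 3 and day 5. Each of the 4 genotype and day combinations was labelled with its own hashtag antibody as 1 pool, so that no group had a replicate, and both genotypes received IgE and antigen. The number of mice in a pool is not given in the sources used here, 1 library of the mixed cells was sequenced, and Ccr2 was deleted in the whole animal.

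After filtering, the WT pools of day 3 and day 5 held 1543 and 1037 cells with a median of 39778 and 48232 reads, and the Ccr2-/- pools 2191 and 2347 cells with a median of 34410 and 18632 reads. Blood endothelial-like cells numbered 62 and 29 in the WT and 51 and 51 in the Ccr2-/- pools. Every set of 4 values below keeps this order of pools, WT at day 3 and day 5 and then Ccr2-/- at day 3 and day 5. There were 27, 20, 36 and 38 lymphatic endothelial-like cells and 275, 228, 604 and 464 fibroblast-like cells. All 9 blood endothelial, all 8 lymphatic and all 7 fibroblast markers had reads in their own type in each pool. The same markers named the clusters and gated the cells, so their reads are no independent check of the types. The targeted gene, Ccr2, stood at 908 and 685 CPM in monocytes and macrophages (Mo-Macs) of the WT pools and at 62.4 and 28.7 CPM in those of the Ccr2-/- pools. The values count reads and not molecules, so that every interval below covers counting error only and not the differences between mice. Cell type names below stand for cells that resemble those types by their markers.

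E-selectin is made by endothelium that has been activated by cytokines, whereas P-selectin is also stored in endothelial granules and in platelets. Both hold PSGL-1 on passing leukocytes, most of all in postcapillary venules, the vessels through which leukocytes enter inflamed skin. Chemokine signals then activate LFA-1, the pair of Itgal and Itgb2, which binds ICAM-1, and VLA-4, which contains Itga4 and binds VCAM-1. ICAM-1 and VCAM-1 are not restricted to endothelium, and fibroblasts and many leukocytes can carry ICAM-1.

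Sele and Selp lie on the same strand of chromosome 1 and Icam1 on chromosome 9. In GRCm38, Sele spans chr1:164048234-164057677, Selp chr1:164115264-164150026 and Icam1 chr9:21015985-21028817, all on the plus strand and all protein-coding (GENCODE). RefSeq places the start of Icam1 upstream of that position. The 250 bases before the RefSeq transcription start in GRCm38.p6 are given for these 3 ligands, because Sele and Selp were the members with the narrowest endothelial pattern and Icam1 was a ligand found in nearly every type. Capitals mark a TATAAA match, the only exact match in these 3 windows to the motifs searched. Sites that vary from the letters searched were not marked, so unmarked bases can still hold binding sites.
Sele (chr1:164047984-164048233, plus strand): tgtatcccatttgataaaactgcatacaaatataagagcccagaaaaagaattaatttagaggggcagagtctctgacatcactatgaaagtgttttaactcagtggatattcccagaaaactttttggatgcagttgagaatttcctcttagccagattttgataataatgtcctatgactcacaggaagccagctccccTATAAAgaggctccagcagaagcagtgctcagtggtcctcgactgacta
Selp (chr1:164115014-164115263, plus strand): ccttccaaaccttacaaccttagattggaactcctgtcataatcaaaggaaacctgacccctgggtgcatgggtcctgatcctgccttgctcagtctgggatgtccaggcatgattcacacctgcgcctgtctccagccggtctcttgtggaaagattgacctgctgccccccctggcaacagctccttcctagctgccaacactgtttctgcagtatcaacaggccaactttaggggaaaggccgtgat
Icam1 (chr9:21015690-21015939, plus strand): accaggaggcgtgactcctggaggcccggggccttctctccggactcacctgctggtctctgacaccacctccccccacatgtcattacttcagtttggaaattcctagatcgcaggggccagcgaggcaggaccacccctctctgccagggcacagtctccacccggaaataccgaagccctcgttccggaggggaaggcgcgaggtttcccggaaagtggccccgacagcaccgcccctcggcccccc
The Sele window held TATAAA from 49 to 44 bases before the start. TATAAA occurred on either strand in 12.4% of 32807 RefSeq promoter windows of the same length. The other motifs were searched on both strands too. The letters bound by the ETS family, GGAAGT, occurred in 19.7% of the windows. For the RUNX family, TGNGGT occurred in 40.1%. For the zinc finger factors of the GATA family, the letters searched were AGATAA, found in 9.99%. The NF-kB decamer occurred in 3.9%, and no motif overlapped another in the windows shown. Promoters were matched for 4 of the 8 members, of which the fourth, Itga4, held 2 RUNX matches on the minus strand, at 60 to 55 and 48 to 43 bases before its start. The remaining members, Vcam1 (chromosome 3), Selplg (chromosome 5), Itgal (chromosome 7) and Itgb2 (chromosome 10), are named only.

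Among the 8 genes, Sele was found in blood endothelium and little elsewhere, and Selp was highest there. The integrin subunits and Selplg were found in leukocytes, and Icam1 and Vcam1 crossed that line. Sele stood first in blood endothelium at a median of 549 CPM over the 4 pools, and its lowest pool there, at 176 CPM, was far above the highest fibroblast pool, the next type, at 2.04 CPM. Selp also stood first in blood endothelium with a median of 918 CPM, and the next type, lymphatic endothelium, lay apart from it with 27.1 to 221 CPM. The heat map of all 8 genes shows these blocks.

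**Figure D1:**
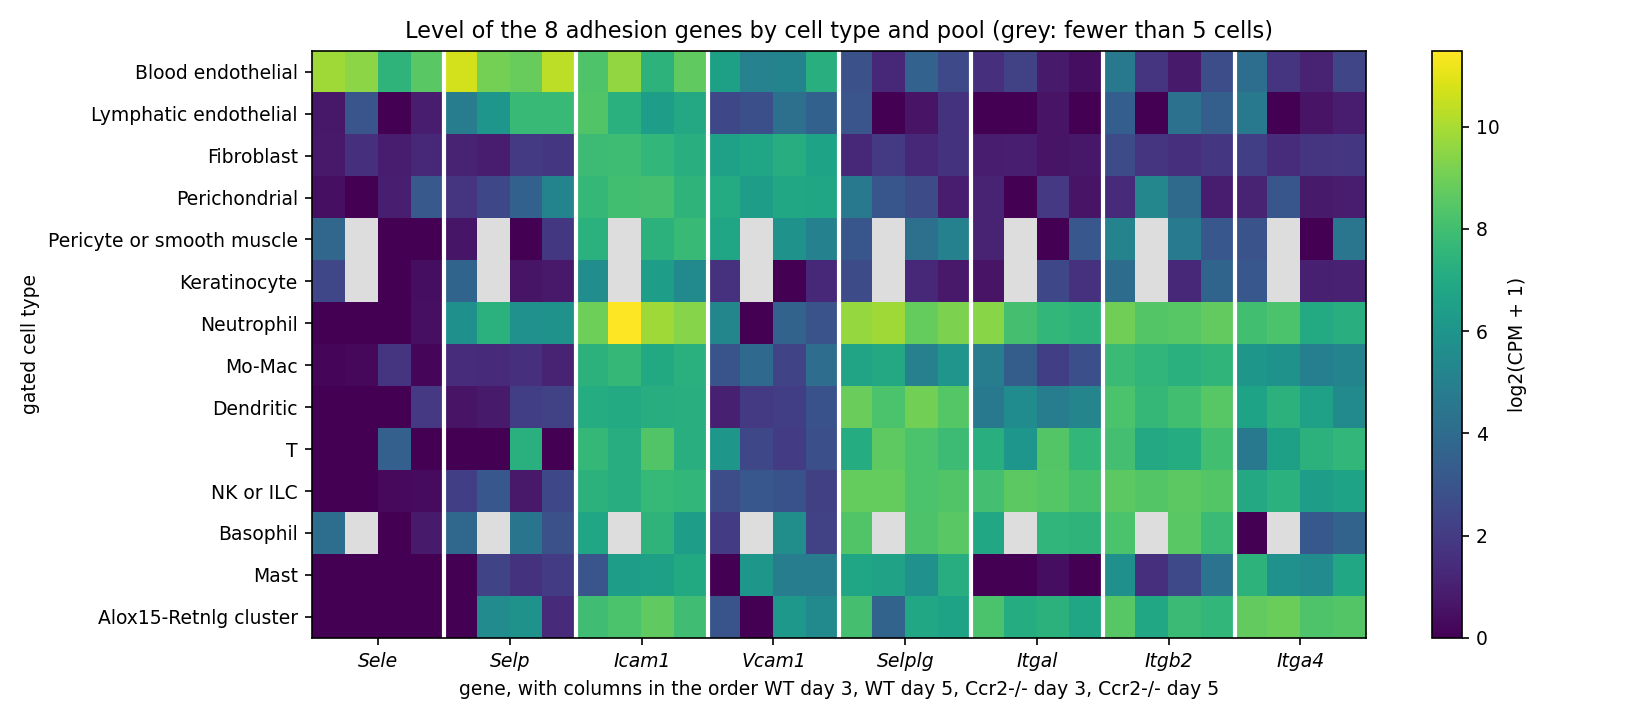
Level of the 8 adhesion genes as log2(CPM + 1), shown by colour, in 14 gated cell types (rows) and the 4 pools (columns within each gene, first WT and then Ccr2-/-, each with day 3 before day 5); grey marks fewer than 5 cells. Sele is bright in the blood endothelial row alone, Selp is brightest there, Icam1 is bright in nearly all rows, and Selplg, Itgal, Itgb2 and Itga4 are bright in most leukocyte rows. Itgal is at or near 0 in mast cells and low in Mo-Macs, Itgb2 is low in mast cells and Itga4 is low in basophils.

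Sele, which encodes E-selectin, read 915 CPM (882 to 950) in blood endothelium of the WT pool at day 3 and 726 CPM (680 to 773) at day 5, while the Ccr2-/- pools read 176 CPM (160 to 194) on day 3 and then 372 CPM (351 to 394) on day 5. Both Ccr2-/- pools were thus below both WT pools. The share of cells with a Sele read differed less, at 24 of 61 cells (39.3%), 8 of 29 (27.6%), 16 of 49 (32.7%) and 14 of 51 (27.5%) once each cell was thinned to 5000 reads. In Mo-Macs, which should lack the gene, the share was between 0.0% and 1.79%, at median depths of 50064 to 70437 reads against 30109 to 43447 in blood endothelium. A single cell held 26.2%, 27.9%, 42.3% and 25.8% of the Sele reads of the 4 pools. Blood endothelium gave 91.8% of all Sele reads of the WT day 3 pool, 74.0% in WT day 5, 53.3% in Ccr2-/- day 3 and 71.2% in Ccr2-/- day 5.

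The Sele level was 5.19-fold lower (4.69 to 5.75) in Ccr2-/- than in WT blood endothelium at day 3 and 1.95-fold lower (1.79 to 2.13) at day 5. The day 3 difference depended on deep cells, since the log2 ratio of −2.38 became −0.95 without cells of over 100000 reads and −1.21 when each cell counted equally. With genotype and day as terms over the 4 pools, edgeR's quasi-likelihood test gave a log2 difference of −1.65 for Sele, with an adjusted p of 0.85 (unadjusted 0.0041), so the gene did not pass. With DESeq2 the log2 difference was −1.66 and the adjusted p 0.0026. The exact permutation test over pools cannot go below 0.33 with 2 against 2, the value it gave.

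Selp, the P-selectin gene, showed another order of pools. In blood endothelium it read 1689 CPM (1643 to 1736) on day 3 and then 542 CPM (503 to 583) on day 5 in the WT pools, while the Ccr2-/- pools read 444 CPM (418 to 471) on day 3 and then 1293 CPM (1254 to 1334) on day 5. The highest pools were therefore WT at day 3 and Ccr2-/- at day 5, and the genotypes overlapped. At day 3 the Ccr2-/- level of Selp was 3.8-fold lower (3.56 to 4.06), and at day 5 it was 2.39-fold higher (2.2 to 2.59). The share of cells with a Selp read followed the same order, at 45.9%, 34.5%, 28.6% and 43.1%, with 0.754% to 1.32% in Mo-Macs. Over both days edgeR gave a log2 difference of −0.32 for Selp, with an adjusted p of 0.999. Outside the endothelium, Selp read 53.3, 158, 55.3 and 59.1 CPM in neutrophils, where the second value rests on 5 cells and 4.88% to 5.97% of the cells of the other 3 pools had a read. T cells of Ccr2-/- day 3 were at 158 CPM, but 1 cell held 98.1% of those reads. Blood endothelium gave 87.6%, 62.5%, 40.3% and 64.3% of all Selp reads of the 4 pools. In Ccr2-/- day 3, lymphatic endothelium gave 15.4%, fibroblasts 10.3%, neutrophils 7.64% and cells outside the gated types 17.2%. Of the 162572556 reads of all genes in that pool, lymphatic endothelium held 1930287, fibroblasts 98880740 and neutrophils 3815219.

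The 2 selectins were found in the same cells more often than apart. Of 190 blood endothelial cells at 5000 reads, 62 had a Sele read, 74 a Selp read and 54 both. Sele was read in 73.0% of the cells with Selp and in 6.9% of those without. By pool, the share of Selp cells with Sele was 85.7%, 70.0%, 71.4% and 59.1%, against 0.0%, 5.26%, 17.1% and 3.45% of cells without Selp. These cells come from 4 pools of 1 library, and the shares carry no test.

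Icam1, the ligand of LFA-1, was read in nearly every cell type. In blood endothelium it read 316 CPM (297 to 337) on day 3 and then 782 CPM (735 to 832) on day 5 in the WT pools, while the Ccr2-/- pools read 170 CPM (154 to 187) on day 3 and then 415 CPM (392 to 438) on day 5. Both day 5 pools were higher than the day 3 pool of the same genotype, and each Ccr2-/- pool was lower than the WT pool of its day. The day 5 level was 2.47 times the day 3 level in WT (2.26 to 2.7) and 2.44 times in Ccr2-/- (2.18 to 2.73). Icam1 was the only 1 of the 4 members measured for this comparison in blood endothelium (at least 50 reads on each day) that was past 2-fold in both genotypes, beside 1.51% of 8212 genes that were at least 2-fold higher at day 5 in both. The edgeR day term was 1.31 on the log2 scale for Icam1, with an adjusted p of 0.9999 (unadjusted 0.0029).

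Leukocyte markers were read in these blood endothelial cells too. The summed Mo-Mac markers read 519, 3726, 111 and 73.4 CPM in the blood endothelial cells of the 4 pools, with 8 or 9 of 9 markers present, and the neutrophil markers 145, 43.6, 785 and 811 CPM, with 5 to 9 of 9. The Mo-Mac sum was higher at day 5 in WT, as Icam1 was, but not in Ccr2-/-. In the cells with few reads of either list, Icam1 read 327, 569, 174 and 341 CPM, so that each day 5 pool was above the day 3 pool of its genotype but neither was past 2-fold. Between genotypes Icam1 was 1.86-fold lower in Ccr2-/- at day 3 and 1.89-fold lower at day 5, and the edgeR log2 difference was −0.89 with an adjusted p of 0.999. Without cells of over 100000 reads the log2 ratio at day 3 went from −0.90 to −0.27 for Icam1.

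Vcam1, the ligand of VLA-4, was low in blood endothelium, at 91.4 CPM (81.0 to 103) on day 3 and then 33.6 CPM (24.4 to 45.2) on day 5 in the WT pools, while the Ccr2-/- pools read 35.5 CPM (28.5 to 43.7) on day 3 and then 151 CPM (138 to 165) on day 5. As for Selp, WT day 3 and Ccr2-/- day 5 were the high pools. The level in Ccr2-/- was 2.57-fold lower at day 3 and 4.49-fold higher (3.29 to 6.26) at day 5, and edgeR gave a log2 difference of 0.39 with an adjusted p of 0.999. A Vcam1 read was found in 19.7%, 6.90%, 6.12% and 15.7% of the cells. Without the cells that had leukocyte marker reads, the log2 ratio of Vcam1 at day 5 was 1.46 in place of 2.17. Fibroblast markers summed to 2914 CPM in the blood endothelial cells of Ccr2-/- day 5, against 914 to 1053 CPM in the other pools, with all 7 present in each, and their part in the Vcam1 level was not tested.

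**Figure D2:**
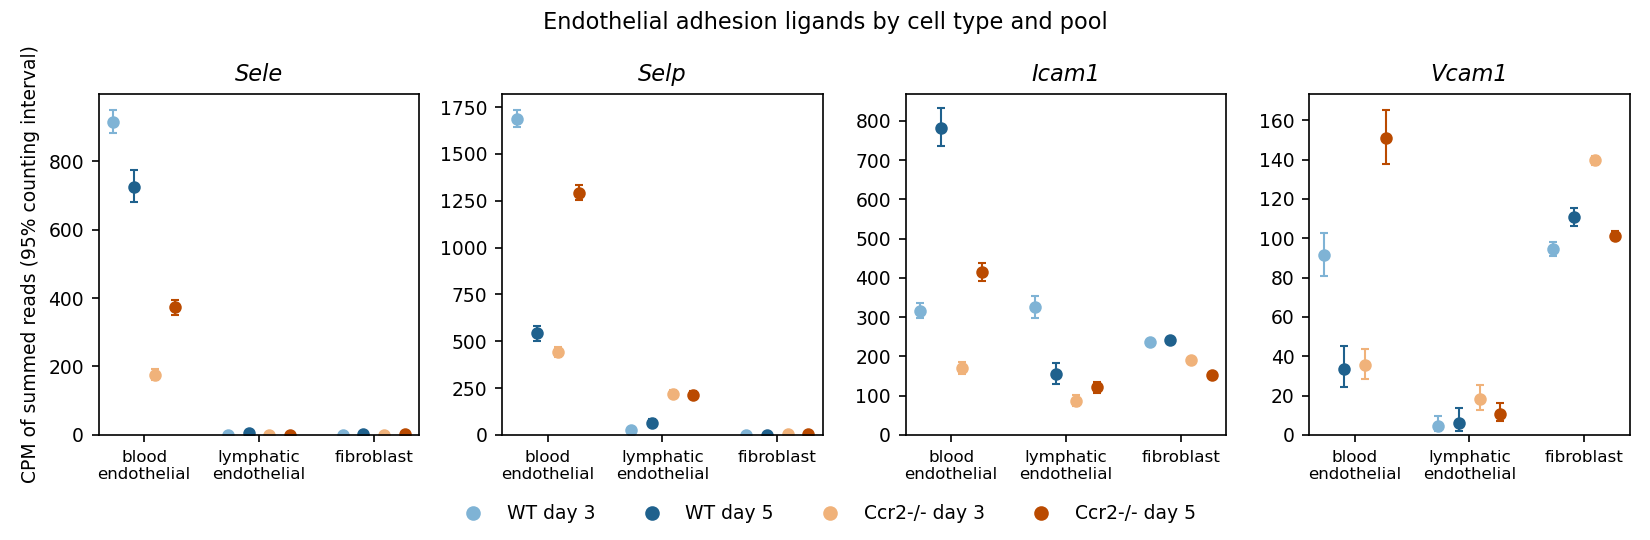
CPM of summed reads (y axis, from 0) of Sele, Selp, Icam1 and Vcam1 in blood endothelium, lymphatic endothelium and fibroblasts (x axis), with 1 point per pool and bars for the 95% counting interval. The WT day 3 pool is the highest for Sele (915 CPM) and Selp (1689 CPM) in blood endothelium, the WT day 5 pool for Icam1 (782 CPM), and Vcam1 is at 94.4 to 140 CPM in the 4 fibroblast pools.

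Because venules are the main site of leukocyte exit, blood endothelial cells were divided by a read of Ackr1, the atypical chemokine receptor that marks venular endothelium and that had no part in the clustering. Cells with Ackr1 were 24 of 61 (39.3%) in WT day 3, 10 of 29 (34.5%) in WT day 5, 5 of 49 (10.2%, exact interval 3.40% to 22.2%) in Ccr2-/- day 3 and 15 of 51 (29.4%) in Ccr2-/- day 5. The Ccr2-/- day 3 pool was thus the lowest. The intervals of the others were 27.1% to 52.7% in WT day 3, 17.9% to 54.3% in WT day 5 and 17.5% to 43.8% in Ccr2-/- day 5. They cover the sampling of cells within a pool and not differences between mice, so they do not compare genotypes or days. The pool with the lowest Ackr1 share was also that with the lowest Sele, Selp and Icam1 levels.

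Within the cells with Ackr1, Sele read 1588, 1876, 1488 and 944 CPM in the 4 pools, against 160, 117, 83.6 and 91.6 CPM in the cells without. Selp read 2932, 1419, 2861 and 3175 CPM in the cells with Ackr1 and 293, 78.3, 274 and 370 CPM in the cells without. Both selectins were higher in the Ackr1 cells of every pool. At day 3 the WT and Ccr2-/- pools were close to each other within these cells, where all cells together had differed 5.19-fold and 3.8-fold. At day 5 the pools stayed apart within the Ackr1 cells, at 1876 against 944 CPM for Sele and 1419 against 3175 CPM for Selp. Only 5 cells stood behind the Ccr2-/- day 3 values, and what part the Ackr1 share has in the pooled levels was not tested. Icam1 read 457, 964, 283 and 690 CPM with Ackr1 and 158, 686, 163 and 280 CPM without. Vcam1 read 140, 64.1, 127 and 334 CPM with Ackr1 and 37.0, 17.5, 28.7 and 61.2 CPM without.

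By cells, Sele was read in 81.5% of all cells with Ackr1 and in 13.2% of those without, and Selp in 94.4% and 16.9%. For Icam1 the shares were 77.8% and 30.9% and for Vcam1 25.9% and 8.1%. All 4 ligands were thus read more often in the Ackr1 cells, after thinning to the same depth. The Ccr2-/- day 3 pool stood apart for Sele, since 18.75% of its Sele cells had Ackr1, against 87.5% to 92.9% in the other pools. Sele was read in 29.5% of its cells without Ackr1, against 2.78% to 8.11% in the others. The cells with Ackr1 had a median of 24961 to 50247 reads before thinning and those without 24701 to 34156.

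**Figure D3:**
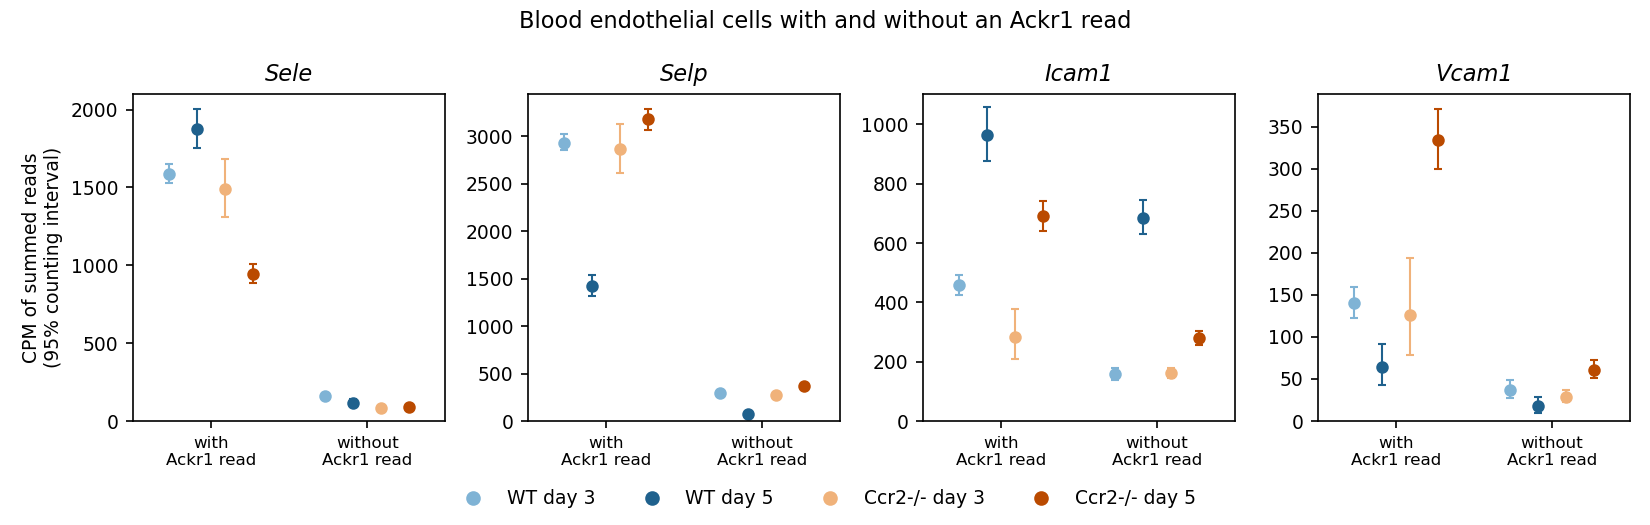
CPM of summed reads (y axis, from 0) of Sele, Selp, Icam1 and Vcam1 in blood endothelial cells with and without an Ackr1 read (x axis), with 1 point per pool and bars for the 95% counting interval. Sele and Selp are at 944 CPM or more in all pools of cells with Ackr1 and at 370 CPM or less in all pools of cells without.

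Lymphatic endothelium lines the vessels that drain tissue fluid and migrating leukocytes. Selp read 27.1 CPM (19.5 to 36.8) there at day 3 and 64.5 CPM (48.5 to 84.2) at day 5 in the WT pools, while the Ccr2-/- pools were at 221 CPM (200 to 243) on day 3 and, on day 5, at 214 CPM (195 to 234). Both Ccr2-/- pools were higher than both WT pools. The level in Ccr2-/- was 8.14 times that of WT at day 3 (5.9 to 11.5) and 3.31 times at day 5 (2.5 to 4.47). A Selp read was found in 1 of 27 cells (3.70%), 2 of 19 (10.5%), 11 of 36 (30.6%) and 10 of 37 (27.03%), and 1 cell held 75.6%, 46.3%, 29.8% and 22.5% of the reads. Selp was 1 of the 2 members measured for this comparison in lymphatic endothelium and was the only 1 past 2-fold at both days, beside 5.51% of 6775 genes that were at least 2-fold higher in Ccr2-/- at both. The edgeR log2 difference was 2.28 with an adjusted p of 0.20 (unadjusted 0.00057), and the adjusted p was 0.046 with DESeq2 and 0.0040 without the filter on low counts.

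Markers of blood endothelium were also read in the lymphatic cells. They summed to 1695, 1804, 2079 and 2244 CPM, which differed far less between pools than Selp did, with 7 or 8 of 9 present and Sox17 at 0 in every pool. In the 9, 11, 12 and 12 lymphatic cells whose blood endothelial marker reads were at most 10% of their lymphatic marker reads, Selp read 31.4, 54.5, 13.9 and 0.0 CPM, and the log2 ratio at day 3 was −1.17 in place of 3.02. In these few cells Selp was thus not higher in the Ccr2-/- pools. The gate was set after the data were seen and kept 9 of 27, 11 of 20, 12 of 36 and 12 of 38 cells. It cannot tell mixed cells from lymphatic cells that express some of these markers, and the source of the reads was not tested. The WT day 3 lymphatic cells also stood apart by 42900 CPM of fibroblast markers, against 926 to 4528 CPM in the other pools, and without the cells with more fibroblast than lymphatic marker reads the Selp log2 ratios were 2.07 and 1.77.

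Of the other ligands, Sele was at 0.0 to 7.17 CPM in lymphatic cells, with no lymphatic cell showing a read at 5000 reads. Vcam1 was at 4.63 to 18.1 CPM. Icam1 read 325, 154, 87.0 and 121 CPM, which was 3.73-fold lower in Ccr2-/- at day 3 and differed little at day 5, where the ratio was 0.785. For Icam1 the edgeR log2 difference was −1.22 with an adjusted p of 0.70, and the day 5 log2 ratio of −0.35 became 1.77 without cells of over 100000 reads.

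In fibroblasts, which form the connective tissue of the dermis, a selectin read was found in fewer than 1% of the cells of each pool, whereas the immunoglobulin-type ligands were common. Icam1 read 237, 243, 192 and 153 CPM, with a read in 55.1%, 49.6%, 47.5% and 45.0% of the cells. Both Ccr2-/- pools were lower than both WT pools, with ratios of 0.81 at day 3 and 0.63 at day 5. The edgeR log2 difference was −0.48 with an adjusted p of 0.094 for Icam1 (unadjusted 0.0071), DESeq2 gave 0.044 and the fit without the low-count filter 0.049. Vcam1 read 94.4, 111, 140 and 101 CPM, with a read in 22.3%, 24.3%, 32.0% and 25.2% of the cells, and the pools of the genotypes overlapped (edgeR log2 difference 0.22, adjusted p = 0.56). Vcam1 stood first in perichondrial cells, the lining of the ear cartilage, at 132, 84.5, 114 and 105 CPM, which overlapped with fibroblasts. Fibroblasts gave 56.6% to 77.2% of all Vcam1 reads of a pool and blood endothelium 0.498% to 5.68%. These shares also carry cell number and depth. Fibroblasts held 29443124 of 89492293, 22066383 of 68064673, 98880740 of 162572556 and 78838302 of 148269050 reads of all genes in the pools. Blood endothelium held 3052910, 1308045, 2506556 and 3091641 of them.

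Selp was past 2-fold in fibroblasts at both days, at 1.15, 0.816, 2.87 and 2.55 CPM, beside 1.39% of 15996 genes that were at least 2-fold higher. Selp in Mo-Macs was at 1.19 to 1.95 CPM. A Selp read was found in 0.365% to 0.828% of fibroblasts, and edgeR gave a log2 difference of 1.47 with an adjusted p of 0.14. By the 2-fold rule at both days, none of the 4 members measured in blood endothelium was past the fold in the same direction at both, beside 5.26% of 8212 genes past it either way. Across the 5 cell types with at least 20 cells in each pool, edgeR called none of the members between genotypes at an adjusted p below 0.05. In blood endothelium 7 members were tested and 0.05% of 11990 genes were called, in lymphatic endothelium 4 members and 0.0744% of 10747 genes, in fibroblasts 8 members and 3.44% of 19313 genes, in Mo-Macs 7 members and 1.45% of 16135 genes, and in NK cells or innate lymphoid cells (ILCs) 7 members and 0.0% of 11521 genes. At an unadjusted p below 0.05 the numbers of members were 2, 2, 2, 3 and 0 in that order. Of all genes tested, 576, 661, 3925, 2908 and 629 were below it. DESeq2 called 1, 1, 1, 1 and 0 members, namely Sele, Selp, Icam1 and Selplg, beside 58, 45, 1382, 785 and 9 genes. Between days edgeR also called none of the members, beside 0.00834% of the genes in blood endothelium and 0.0% in the other 4 types. At an unadjusted p below 0.05 were 1, 0, 0, 2 and 0 members, beside 398, 413, 1564, 1502 and 304 genes. DESeq2 called no member between days.

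**Figure D4:**
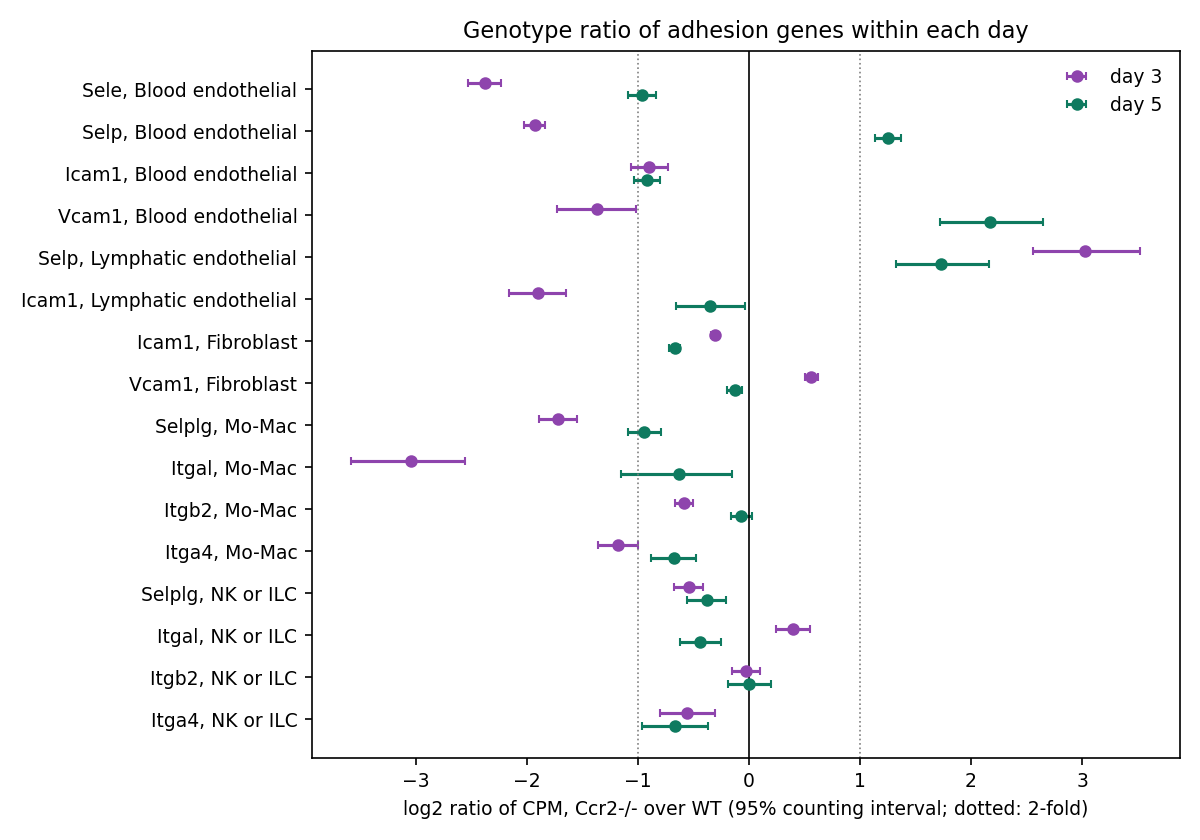
Log2 ratio of CPM, Ccr2-/- over WT (x axis), within day 3 and within day 5 for 16 pairs of gene and cell type (y axis), with bars for the 95% counting interval and dotted lines at 2-fold. Selp and Vcam1 in blood endothelium lie on opposite sides of 0 at the 2 days (−1.93 and 1.25, −1.36 and 2.17), Sele and Icam1 lie below 0 at both, and the Itgb2 values in NK cells or ILCs are near 0.

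On the leukocyte side, Selplg, whose product PSGL-1 is bound by the selectins, was found in every leukocyte type and hardly in fibroblasts, with 1.46 to 2.81 CPM in fibroblasts. Neutrophils stood first, at 823, 910, 441 and 601 CPM, although the WT day 5 value rests on 5 cells. Dendritic cells (467, 303, 527 and 352 CPM), NK cells or ILCs (439, 433, 302 and 333 CPM) and the neutrophils overlapped in their ranges. Mo-Macs read less than these types, at 102, 120, 31.1 and 62.5 CPM, and both Ccr2-/- pools were lower than both WT pools. A read was found in 25.3%, 29.8%, 12.5% and 17.1% of Mo-Macs, against 0.439% to 1.29% of fibroblasts.

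In Mo-Macs, Selplg was 3.29-fold lower in Ccr2-/- at day 3 and 1.92-fold lower at day 5. The edgeR log2 difference was −1.28 with an adjusted p of 0.054 (unadjusted 0.00097), and the adjusted p of Selplg was 0.0014 with DESeq2 and 8.83e-05 without the low-count filter. In NK cells or ILCs the ratios were 0.687 and 0.769, with a log2 difference of −0.41 and an adjusted p of 0.95. In neutrophils, which had enough cells for a comparison at day 3 alone, the log2 ratio of Selplg was −0.90.

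Itgal, the alpha chain of LFA-1, was highest in NK cells or ILCs, at 267, 385, 351 and 285 CPM, which overlapped with neutrophils (693, 277, 196 and 170 CPM). T cells read 148, 64.8, 338 and 197 CPM, and mast cells, which reside in tissue, were at 0.0, 0.0, 0.363 and 0.0 CPM. In Mo-Macs Itgal was at 28.1, 9.43, 3.41 and 6.09 CPM, with WT day 3 the highest pool. The Ccr2-/- level there was 8.24-fold lower at day 3 and the ratio at day 5 was 0.645, with an edgeR log2 difference of −1.79 and an adjusted p of 0.20 (0.016 without the low-count filter). Neutrophils at day 3 were past 2-fold too, with a ratio of 0.282 for Itgal, beside 16.9% of 6343 genes at least 2-fold lower in Ccr2-/- neutrophils at that day.

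Itgb2, the beta chain that LFA-1 shares with other leukocyte integrins, varied little between pools in lymphocytes of the innate type. NK cells or ILCs read 387, 343, 380 and 343 CPM and neutrophils 508, 336, 365 and 418 CPM. In Mo-Macs it read 229, 189, 153 and 181 CPM, with ratios of 0.668 and 0.955 between genotypes (edgeR log2 difference −0.28, adjusted p = 0.51). Mast cells were at 53.8, 2.03, 4.72 and 20.1 CPM. The 23.9 CPM of Itgb2 in WT day 3 blood endothelium was the highest of the 4 endothelial values, which were otherwise 0.798 to 5.50 CPM.

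Itga4, the alpha chain of VLA-4, had an order of its own. It stood first, at 417, 485, 319 and 341 CPM, in a cluster of shallow cells led by Alox15, Retnlg, P2rx1 and Ccr3, which carried too few markers of 1 type for a name and had a median of 4193 to 4485 reads. The next type, neutrophils, lay apart from it at 255, 297, 129 and 152 CPM. Mast cells read 169, 54.8, 46.1 and 113 CPM of Itga4 while their Itgal was at or near 0, whereas basophils read 0.0, 0.0, 7.99 and 11.6 CPM of Itga4 (from 2 cells in WT day 5) and 115 to 190 CPM of Itgal in the pools with at least 20 basophils. By the 2-fold rule at both days none of the 6 members measured in Mo-Macs was past the fold, beside 6.8% of 12923 genes past it either way, and none of the 5 measured in NK cells or ILCs, beside 5.68% of 8048 genes. In Mo-Macs Itga4 read 67.3, 56.5, 29.8 and 35.3 CPM, both Ccr2-/- pools being lower, with ratios of 0.443 and 0.626 (edgeR log2 difference −0.88, adjusted p = 0.12, and 0.027 without the low-count filter).

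Icam1 and Vcam1 were also read in leukocytes. Neutrophils read 496, 2868, 911 and 683 CPM of Icam1, where the WT day 5 value came from 5 cells of which 1 held 82.8% of the reads. The other 3 pools were above every blood endothelial pool but the highest, WT day 5 at 782 CPM, and Ccr2-/- day 3 was above that pool too. Mo-Macs read 167, 200, 123 and 158 CPM of Icam1, with an edgeR log2 difference of −0.34 and an adjusted p of 0.36. Vcam1 in Mo-Macs was low, at 6.96, 14.3, 4.09 and 16.5 CPM, and was past 2-fold between days in both genotypes (ratios 2.05 and 4.03), beside 1.36% of 12923 genes at least 2-fold higher at day 5 in both. The edgeR day term for Vcam1 was 1.49 with an adjusted p of 0.37.

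Mo-Macs hold both incoming monocytes and macrophages, and their mixture differed between pools. Cells with at least 2 reads of Ly6c2, a marker of classical monocytes, at 5000 reads were 112 of 399 (28.1%) in WT day 3, 11 of 406 (2.71%) in WT day 5, 15 of 112 (13.4%) in Ccr2-/- day 3 and 4 of 76 (5.26%) in Ccr2-/- day 5. Itga4 read 142, 82.0, 118 and 43.4 CPM in these cells and 41.7, 55.8, 23.4 and 35.7 CPM in the cells with no Ly6c2 read. Itgb2 read 225 to 368 CPM against 129 to 186 CPM. The levels of both subunits were higher in the Ly6c2 cells of the WT pools and of Ccr2-/- at day 3, whereas the 4 Ly6c2 cells of Ccr2-/- at day 5 had 6 Itga4 reads, whose interval (15.9 to 94.6 CPM) covers the level of the other cells, as did that of Itgb2 (153 to 319 CPM). The share of cells with a read did not follow in WT day 5 for Itga4 (9.09% against 15.9%) or in Ccr2-/- day 3 for Itgb2 (33.3% against 35.2%).

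Selplg did not share that order, with 111, 140, 21.3 and 145 CPM in the Ly6c2 cells and 104, 119, 33.1 and 61.8 CPM in the cells without. In Mo-Macs with no Ly6c2 read, the log2 ratio of Selplg between genotypes was −1.65 at day 3 and −0.94 at day 5, beside −1.72 and −0.94 in all Mo-Macs. Itgal read 59.8, 8.54, 1.18 and 7.24 CPM in the Ly6c2 cells and 15.7, 9.73, 3.20 and 6.01 CPM without, with log2 ratios of −2.30 and −0.70 in the latter. The lower Selplg and Itgal of the Ccr2-/- pools were therefore also present among cells without Ly6c2.

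**Figure D5:**
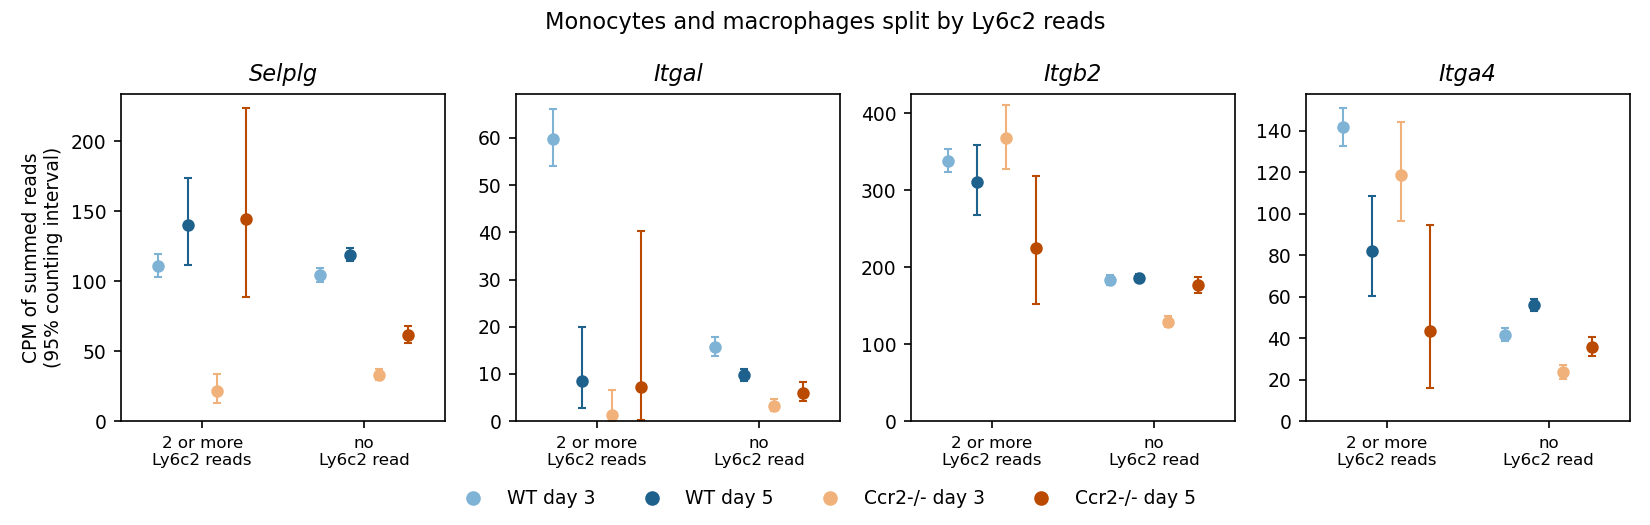
CPM of summed reads (y axis, from 0) of Selplg, Itgal, Itgb2 and Itga4 in Mo-Macs with 2 or more Ly6c2 reads and with none (x axis), with 1 point per pool and bars for the 95% counting interval. Itgb2 and Itga4 are higher on the left in 3 pools, with overlapping intervals in Ccr2-/- day 5 (4 cells on the left). Selplg in cells with no Ly6c2 read is lower in the Ccr2-/- pools (33.1 and 61.8 CPM) than in the WT pools (104 and 119 CPM).

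By cluster, the Mo-Macs led by Ms4a4c and Lyz2 numbered 136, 56, 5 and 6, those led by Arg1 141, 37, 40 and 27, those led by Selenop and Cbr2 57, 216, 7 and 4, and those led by C1qa and C1qc 66, 99, 65 and 41. The C1qa cluster was thus the one with at least 40 cells in every pool. Selplg there read 145, 116, 36.4 and 63.4 CPM, which kept both Ccr2-/- pools below both WT pools. Itgal read 80.7 CPM in the Ms4a4c cluster of WT day 3 and 8.98 CPM in that of WT day 5.

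Other genes of the adhesion pathway were taken from lists of endothelial junction and adhesion genes, leukocyte adhesion receptors, selectin ligand synthesis and integrin activation. In blood endothelium, edgeR called none of the 11, 9, 9 and 9 genes tested in these lists between genotypes, beside 6 of all 11990 genes. At an unadjusted p below 0.05 were 0, 1, 0 and 0 of the list genes, beside 576 of all genes. The median log2 differences were 0.07, 0.31, 0.20 and −0.45 for the 4 lists, −0.89 for the 7 members tested and 0.04 for all genes tested. The junction genes with the highest level there were Pecam1, an adhesion molecule between endothelial cells (1867, 1281, 1984 and 2078 CPM), Cd34 (752, 605, 867 and 881 CPM) and Cdh5, the cadherin of endothelial junctions (817, 714, 736 and 854 CPM). The pools differed less in these genes than in the selectins.

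Beside 3.44% of all genes tested in fibroblasts and 1.45% in Mo-Macs that were called, each of 4 lists had 1 gene called. In fibroblasts 1 of 10 junction and adhesion genes was lower in Ccr2-/-, namely Cd34, a sialomucin, at 852, 1033, 521 and 518 CPM (edgeR log2 difference −0.85, adjusted p = 0.018). Of 12 leukocyte adhesion receptors 1 was higher, Cd44, the receptor of hyaluronan, at 152, 146, 253 and 231 CPM (log2 difference 0.70, adjusted p = 0.028). In Mo-Macs 1 of 10 selectin ligand genes was lower in Ccr2-/-, St3gal4, a sialyltransferase that acts in making selectin ligands, at 78.7, 72.9, 32.4 and 30.3 CPM (log2 difference −1.23, adjusted p = 0.047). Of 9 integrin activation genes in Mo-Macs 1 was lower, Rassf5, which links Rap1 to LFA-1, at 28.3, 43.1, 8.67 and 12.2 CPM (log2 difference −1.72, adjusted p = 0.048). Each of these 4 calls was lost without cells of over 100000 reads, where the adjusted p was 0.20 for Cd34, 0.68 for Cd44, 0.42 for St3gal4 and 0.29 for Rassf5. With a hashtag ratio of 10 and with all cells of the named clusters the 4 calls were lost as well, Cd44, St3gal4 and Rassf5 also at resolution 1, and St3gal4 and Rassf5 also without TMM, at adjusted p between 0.056 (Cd44) and 0.092 (Cd34 and Cd44).

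The genes with a pattern most like each member were found by Pearson's r of log2(CPM + 1) over 43 profiles of 14 cell types in the 4 pools, as a description over profiles that share a library. For Sele they were AU021092 (0.892), Gm32688 (0.891) and Tcf15 (0.882), and for Selp Arhgef15 (0.829), Grrp1 (0.810) and Egfl7 (0.800). Icam1 had weaker matches, with Irf1 at 0.721, Fbxl5 at 0.669 and Spata13 at 0.659, and Vcam1 was followed by Kdelr3 (0.800), Mxra7 (0.792) and Gpx7 (0.786). For Selplg they were Ptprc (0.949), Coro1a (0.945) and Ikzf1 (0.934), for Itgal Akna (0.926) and Cd52 (0.923), for Itgb2 Bin2 (0.911), Cd52 (0.907) and Ptprc (0.902), and for Itga4 Sla (0.885), Gpr132 (0.878) and Pik3r5 (0.842). Among the members, r was 0.68 between Sele and Selp, 0.24 between Sele and Icam1 and 0.88 between Selplg and Itgb2.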

How the data were processed

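TAS-Seq, a whole-transcriptome single-cell method, was applied on the BD Rhapsody platform to 10000 loaded cells. The authors removed adapters with Cutadapt, aligned reads with Bowtie2 to Ensembl GRCm38.p6 transcripts and deposited raw counts of reads per gene and barcode, which are not molecules. Barcodes were those above the knee of the read curve. A hashtag count table, also deposited, gave the pools, and 9 of its hashtag columns belong to no pool and were not used. The background correction that the study describes could not be seen in the deposited counts.

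Of 8953 barcodes with 548117598 reads, a barcode was dropped over 20% mitochondrial reads (594), under 200 genes (38), under 10 hashtag reads (760) or when the highest hashtag was under 3 times the next (570), which removed doublets between pools and not those within, and 7118 cells were kept. The pools held 68064673 to 162572556 reads. Cells were clustered with Scanpy 1.11.5 (2000 variable genes without the adhesion lists, Ccr2 and Ackr1, 30 components, 20 neighbours, Leiden resolution 2), clusters were named from fixed markers and cells of a named cluster were kept when they had reads of at least 3 of its markers. Shares of cells with a read were taken after thinning each cell to 5000 reads, with exact (Clopper-Pearson) 95% intervals. Levels were CPM of the summed reads with exact Poisson 95% intervals. A count of 0 allows up to 3 reads, which in blood endothelium is 0.970 to 2.29 CPM.

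Summed reads were tested with edgeR 4.0.16 in R 4.3.3 (quasi-likelihood, TMM, filterByExpr, genotype and day as additive terms, Benjamini-Hochberg over all genes tested, threshold 0.05). The study's own test treats cells as replicates and was not used. With 4 pools, 1 residual degree of freedom was left, namely the part of a genotype difference that changes with day. The p-values therefore do not measure the spread between replicate pools or mice, and each pool may hold several mice. A gene whose genotype difference reverses between the days, such as Selp in blood endothelium, has a large residual by this design. On simulated Mo-Mac counts the fit recovered 93 of 100 genes changed 4-fold and 100 of 100 changed 16-fold. Of the 11877 genes simulated, 9 unchanged ones were called falsely. The simulation gave every gene the same dispersion and the same fold on both days, and it left out genes with few reads. In the real counts a genotype difference can change with day, so these numbers do not give the recovery there. Mo-Macs held 6736583 to 24917958 reads in a pool, against 836580 to 3091641 in blood and lymphatic endothelium, where recovery was not tested. The 2-fold rule used genes with at least 50 reads on each day. DESeq2 1.42.0, library sizes without TMM, no low-count filter, a hashtag ratio of 10, other Leiden resolutions, no marker gate, leaving out cells of over 100000 reads, leaving out the cell with most reads, equal weight per cell and leaving out each pool were tried as alternatives. The gates on markers of another type and on Ly6c2 for levels, and the day 3 comparison of neutrophils, were added after the data were seen. The 8 genes and the lists were chosen with earlier results of these data known. Named beside the 8 genes were the list genes called by edgeR, or the 3 with the highest CPM of a list without calls, the 3 genes most like each member, and Ccr2. For Itgal, 1 of these 3 is not reported here.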

Additional observations from a re-analysis of the deposited data

Results flagged for a closer look

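In blood endothelium, Selp was lower in Ccr2-/- than in WT at day 3 (log2 ratio −1.93) and higher at day 5 (1.25), so that the 2 ratios differed by 3.18 on the log2 scale. Vcam1 showed the same order, with log2 ratios of −1.36 at day 3 and 2.17 at day 5, a difference of 3.53. With 1 pool for each genotype and day, the difference between the days was not tested for either gene. The share of cells with an Ackr1 read was 39.3% at day 3 and 34.5% at day 5 in WT and 10.2% and 29.4% in Ccr2-/-, and its part in these values was not tested.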

How the results depend on the processing

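No paired analysis was possible because each genotype and day had 1 pool and no replicate number ties pools to each other. The levels rest on 29 to 62 blood endothelial and 20 to 38 lymphatic cells in a pool. Of 298 alternative values of the log2 ratios within a day, 204 stayed within the counting interval, and 14 changed sign. Of these, 1 was Selp in lymphatic endothelium at day 3 (−1.17 without the lymphatic cells with blood endothelial marker reads), 4 were Icam1, among them lymphatic endothelium at day 5 (1.77 without cells of over 100000 reads, 1.92 with equal weight per cell and 0.52 without the cell with most reads, in place of −0.35), 1 was Itgal in Mo-Macs at day 5 (0.08 with all cells of the named clusters, in place of −0.63) and 8 were Itgb2, whose ratios lay close to 0 except that of Mo-Macs at day 3 (−0.58, and 0.07 without cells of over 100000 reads). Of 668 levels, 430 stayed within the interval and 238 moved, and of 176 shares of cells with a read 88 stayed and 88 moved. The type with the highest median stayed first in 30 of 32 cases. The exceptions were Vcam1 without WT day 3 and Itgb2 without Ccr2-/- day 5. Of 133 alternative edgeR differences, 18 lost a call, 9 gained one 5 reversed and the rest kept direction and call. Those reversed were small: Selp in blood endothelium (0.014 at a hashtag ratio of 10 and 0.28 without cells of over 100000 reads), and, also without those cells, Vcam1 in fibroblasts (−0.13), Icam1 in Mo-Macs (0.017) and Itgb2 in Mo-Macs (0.19). The cause was not tested.

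The numbers of genes called depended strongly on the fit. Between genotypes edgeR called 6 genes in blood endothelium, 8 in lymphatic endothelium, 665 in fibroblasts, 234 in Mo-Macs and 0 in NK cells or ILCs. DESeq2 called 58, 45, 1382, 785 and 9 in that order. Without the low-count filter the numbers were 41, 78, 1738, 1217 and 0. Without TMM they were 0, 0, 470, 95 and 0, with a hashtag ratio of 10 they were 16, 0, 2, 121 and 0, and without cells of over 100000 reads 1, 20, 0, 0 and 9. Resolution 1 gave 135 in fibroblasts and 70 in Mo-Macs, and all cells of the named clusters gave 0 and 152. In NK cells or ILCs 629 genes had an unadjusted p below 0.05. Between days edgeR called 1 gene in blood endothelium and 0 in the other types, with 398, 413, 1564, 1502 and 304 genes at an unadjusted p below 0.05. DESeq2 called 8, 18, 169, 140 and 1, and the fit without the low-count filter 7, 58, 181, 334 and 0. In blood endothelium a hashtag ratio of 10 gave 2 between days and no TMM gave 0, and in lymphatic endothelium 9 were called without cells of over 100000 reads. The cause of these shifts was not tested.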
